A study of Mus musculus with 3 samples.

Results

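The proteasome genes described here were the rows of the deposited signal table whose symbol is Psma, Psmb, Psmc, Psmd, Psme, Psmf or Psmg followed by a number, and they made up 47 of its 30854 rows. Of the 47 rows, 46 encode subunits, activators, an inhibitor or assembly chaperones of the proteasome. The remaining row, *Psmc3ip*, carries a matching name only and encodes a cofactor of meiotic recombination. Total RNA was taken from the embryonic region of wild-type mouse embryos at the early headfold (EHF) stage, after the extraembryonic region had been cut away, and hybridized to 3 Illumina Mouse-6 arrays, here called replicates 1, 2, and 3. The labels give the strain as Cd-1, where the methods name ICR, and place all arrays in a single group, with no mutant, treatment or other stage, so that the only reference for a signal was the background of its own array. Neither the labels nor the methods say if RNA of several embryos was pooled for a replicate, and the p-values below measure only the spread between these samples, which may be technical.

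The proteasome degrades proteins that carry ubiquitin chains. Its barrel-shaped 20S core has outer rings of alpha subunits, which gate the entrance, and inner rings of beta subunits, of which PSMB5, PSMB6, and PSMB7 cut peptide bonds. The 19S regulatory particle caps the core, with a base whose ATPases (PSMC proteins) unfold substrates and a lid whose PSMD14 removes ubiquitin. In immune cells and under interferon the catalytic subunits are replaced by PSMB8, PSMB9, and PSMB10, which gives the immunoproteasome, and thymus and testis have core subunits of their own, PSMB11 and PSMA8. The constitutive particle is present in nearly all cells.

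For each symbol the table gives a log2 signal averaged over its probes and a detection p, which says how the signal compares with negative-control probes on the same array. A symbol was called detected where the detection p was under 0.01 on all 3 arrays. Each array's background level was set at the dimmest symbol with 1 probe whose detection p lay between 0 and 0.01, and these levels were 6.69, 6.66, and 6.58 on replicates 1, 2, and 3. Levels are given as the log2 signal minus this background level. Probes differ in how well they bind, so that the order of levels between genes is not an order of transcript amounts. Between 7191 and 9015 symbols passed on single arrays, and 6357 (20.6%) on all 3. The labelled tissue was checked with marker lists. Embryonic region markers were detected for 9 of 12 genes (the exceptions were *Hesx1*, *Six3*, and *Sox3*) and visceral endoderm markers for 13 of 14 (the exception was *Afp*). Markers of extraembryonic ectoderm were detected for 5 of 13 genes, *Cdx2* (2.89 above background), *Rhox5* (2.75), *Ets2* (2.02), *Bmp4* (1.49), and *Tfap2c* (1.03). *Hand1* was detected on 2 arrays and *Esrrb* on 1, and *Elf5*, *Eomes*, *Ascl2*, *Gcm1*, *Tpbpa*, and *Prl3d1* on none. Markers of blood and immune cells are given below beside the immunoproteasome genes.

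Most genes of the constitutive 20S core, the 19S particle, and the activators gave signals above background in the embryonic region, whereas of the 5 inducible or tissue-restricted core genes only *Psmb10* did. Of the 46 proteasome genes, 25 (54.3%) were detected on all arrays, where 20.6% of all symbols were. A further 3 were detected on 2 arrays, 4 on 1 array, and 14 on none. A test of the level over the 3 arrays (limma, adjusted p under 0.05 after Benjamini-Hochberg correction over 30854 symbols) called 33 genes (71.7%) above background, where it called 23.4% of all symbols. All 25 detected genes were among these 33. The median level of the 46 genes was 2.22 above background, and that of all symbols was 0.15 below it, at -0.15. Single genes ranged from -0.22 (*Psmd3*) to 6.23 (*Psma2*). These arrays read a mixture of cells, in which fewer cells expressing a gene and less RNA per cell cannot be told apart.

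**Figure D1:**
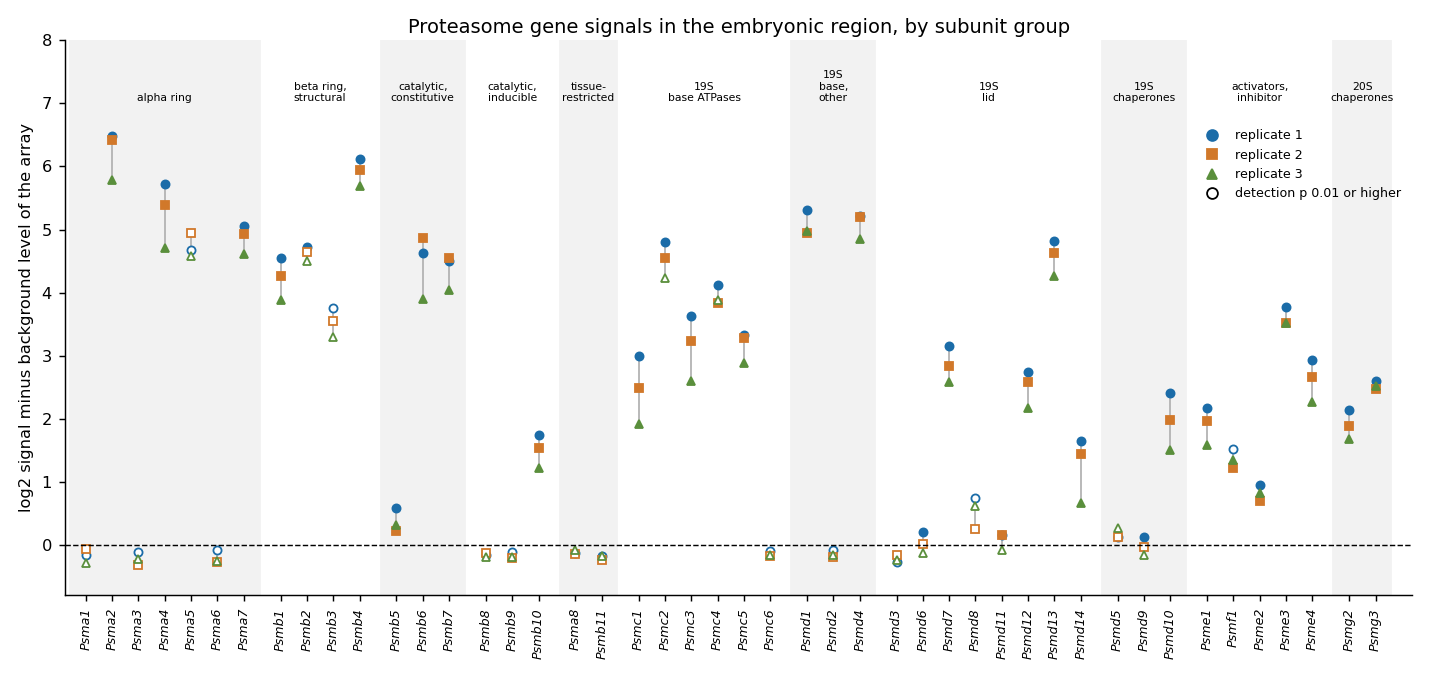
Log2 signal minus the background level of the same array (vertical axis) for 46 proteasome genes, grouped by their place in the particle. Each marker is 1 array, open markers have a detection p of 0.01 or higher, and the dashed line at 0 is the background level. *Psma5*, *Psmb2*, and *Psmb3* lie far above the line with mostly open markers, while *Psmb8*, *Psmb9*, *Psma8*, and *Psmb11* lie just under it.

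The catalytic beta subunits of the constitutive core were all detected. *Psmb5*, which encodes the subunit with chymotrypsin-like activity, had signals of 7.28, 6.88, and 6.90 on replicates 1, 2, and 3. All exceeded the background of their array, by a small margin, and the mean level was 0.38 ± 0.19 (SD, n = 3; limma adjusted p = 0.0209). *Psmb6*, the subunit with caspase-like activity, had signals of 11.32, 11.52, and 10.47, a mean level of 4.46 ± 0.51 above background (limma adjusted p = 0.00015). *Psmb7*, the subunit with trypsin-like activity, is read by 4 probes and had signals of 11.20, 11.21, and 10.62, a mean level of 4.37 ± 0.29 (limma adjusted p = 4.43e-05). Its detection p was 0.00026605 on each array, which is the lowest that 4 probes can give. Signals of *Psmb6* and *Psmb7* were lowest on replicate 3, and on every array they stood far above background.

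Among the interferon-inducible catalytic genes, *Psmb10* alone was above background. Its signals, from 2 probes, were 8.42, 8.19, and 7.80 with a detection p of 0 on each array, and its mean level was 1.49 ± 0.26 (limma adjusted p = 0.000572). *Psmb8*, also with 2 probes, had signals of 6.53, 6.53, and 6.38, a mean level of -0.16 ± 0.04. *Psmb9*, with 1 probe, had signals of 6.58, 6.45, and 6.38, a mean level of -0.17 ± 0.05. Both lay under the background level on every array, with detection p between 0.0552 and 0.531. *Psma1* and *Psma3*, genes of the constitutive core, had mean levels in the same range (-0.17 and -0.22). How well the probes of *Psmb8* and *Psmb9* bind was not tested, so that these readings bound the transcripts only if the probes work. Of the markers of blood and immune cells, which carry the immunoproteasome, none of 5 genes (*Ptprc*, *Cd3e*, *Lyz2*, *Csf1r*, and *Cd68*) was detected on any array. Of all symbols, 20.6% were detected on all 3, so that a count over 5 genes says little. Mean levels of the 5 lay between -0.27 and -0.13. Their log2 summed signals of 8.85, 8.81, and 8.70 add 5 signals at background and are not on the scale of a single gene.

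The tissue-restricted core genes lay under the background level on every array. *Psmb11*, the thymic beta subunit, had signals of 6.50, 6.41, and 6.41. *Psma8*, an alpha subunit of the testis, had signals of 6.56, 6.51, and 6.50, and a further row under an older name of the same gene, *2410072D24Rik*, read 6.46, 6.42, and 6.42. No array gave any of these rows a detection p under 0.01.

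Genes on which the induction of the immunoproteasome depends, or which work with it in antigen presentation, were listed by function. None of the 14 was detected on all arrays, where 20.6% of all symbols were. The interferon receptor gene *Ifngr1*, the transcription factor gene *Irf1*, and the histocompatibility gene *H2-D1* were detected on 2 arrays, and *Jak1*, *Jak2*, and *H2-K1* on 1. No array detected *Ifng*, *Ifngr2*, *Irf8*, *Nlrc5* (listed under *AI451557*), *Tap1*, *Tap2*, *Tapbp*, or *B2m*. The limma test called *B2m* (1.27 ± 0.30, adjusted p = 0.00141), *Jak1* (0.66 ± 0.22, adjusted p = 0.00466), and *Irf1* (0.16 ± 0.08, adjusted p = 0.039), 3 of 14 genes, where it called 23.4% of all symbols. *B2m*, which encodes the light chain of class I histocompatibility molecules, had signals of 8.15, 8.08, and 7.51 from 3 probes while its detection p was 0.0688, 0.0820, and 0.0177.

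The stretch of 250 bases before the annotated start is shown for genes of both kinds of catalytic subunit, a detected pair (*Psmb5* and *Psmb6*) and a pair at background (*Psmb8* and *Psmb9*), and for the lid gene *Psmd12*. All are RefSeq sequences of build GRCm38.p6, written 5′ to 3′ on the strand of the gene. *Psmb5* lies at chr14:54617996-54618245 on the minus strand, *Psmb6* at chr11:70525107-70525356 on the plus strand, *Psmb8* at chr17:34197945-34198194 on the plus strand, *Psmb9* at chr17:34187331-34187580 on the minus strand, and *Psmd12* at chr11:107479278-107479527 on the plus strand. Capitals mark the match to TGACNNNGC in *Psmb5* and *Psmb6*, to TTCNNNGAA in *Psmb8*, to CCAAT on the opposite strand in *Psmb9*, and, in *Psmd12*, first to TGANNNNGCA overlapping TGACNNNGC and then to CCGGAAG, all on the opposite strand.
Psmb5: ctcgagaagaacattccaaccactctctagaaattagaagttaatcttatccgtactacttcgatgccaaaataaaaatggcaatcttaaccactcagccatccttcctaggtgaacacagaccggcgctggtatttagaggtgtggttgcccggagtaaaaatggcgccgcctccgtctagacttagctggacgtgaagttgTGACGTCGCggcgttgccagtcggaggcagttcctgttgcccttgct
Psmb6: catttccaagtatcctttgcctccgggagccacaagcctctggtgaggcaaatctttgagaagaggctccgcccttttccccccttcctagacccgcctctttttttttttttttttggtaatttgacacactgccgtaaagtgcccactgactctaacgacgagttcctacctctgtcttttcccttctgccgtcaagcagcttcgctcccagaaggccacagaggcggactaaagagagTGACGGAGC
Psmb8: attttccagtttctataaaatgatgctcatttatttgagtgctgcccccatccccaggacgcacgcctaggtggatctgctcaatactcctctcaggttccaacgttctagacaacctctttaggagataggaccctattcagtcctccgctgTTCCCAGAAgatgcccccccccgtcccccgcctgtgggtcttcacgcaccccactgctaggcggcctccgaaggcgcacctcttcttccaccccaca
Psmb9: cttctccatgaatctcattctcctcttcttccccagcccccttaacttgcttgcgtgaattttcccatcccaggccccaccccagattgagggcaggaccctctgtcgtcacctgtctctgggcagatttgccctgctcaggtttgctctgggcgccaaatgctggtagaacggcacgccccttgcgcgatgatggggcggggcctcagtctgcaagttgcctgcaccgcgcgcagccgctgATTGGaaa
Psmd12: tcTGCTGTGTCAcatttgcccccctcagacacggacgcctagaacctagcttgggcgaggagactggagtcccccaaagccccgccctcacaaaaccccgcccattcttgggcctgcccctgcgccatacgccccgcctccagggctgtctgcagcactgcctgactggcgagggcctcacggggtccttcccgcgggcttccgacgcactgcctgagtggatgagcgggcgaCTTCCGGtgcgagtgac

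These letters are cores of sites of transcription factors. CCGGAAG belongs to ETS factors, CCAAT to NF-Y, TGACNNNGC and TGANNNNGCA to CNC-bZIP factors such as NFE2L1 and NFE2L2, GAAANNGAAA to IRF factors, and TTCNNNGAA is the core of gamma-activated sites. They were searched for on both strands of windows from 250 bases before to 50 bases after the start, which the reference table held for 38 of the 46 genes and for 27025 genes in all. The choice of motifs and examples was made with counts in view, and a match is a description of letters, not of a bound site. CCGGAAG was found in 13 of the 38 windows (34.2%) and in 9.93% of all genes. Of the 13, 9 were among the 14 genes of the 19S particle with a window, and 1 (*Psma6*) was among the 11 of the constitutive core. By detection, the match was held by 7 of 20 detected genes with a window, by 1 of 7 called by limma alone, and by 5 of 11 called by neither. CCAAT was found in 14 windows (36.8%, against 41.1% of all genes). TGACNNNGC was found in 6 (15.8%, against 14.0%) and TGANNNNGCA in 5 (13.2%, against 14.7%), shares close to those of all genes, and the match of *Psmb8* to TGANNNNGCA lay past the start, outside the stretch shown. GAAANNGAAA was found in 4 windows (10.5%, against 3.99%), those of *Psmb3*, *Psmd4*, *Psmd9*, and *Psme1*, and in none of *Psmb8*, *Psmb9*, *Psmb10*, and *Psmb11*. TTCNNNGAA was found in 2 (5.26%, against 9.55%), *Psmb8* and *Psmd2*, both of them at background on these arrays.

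**Figure D2:**
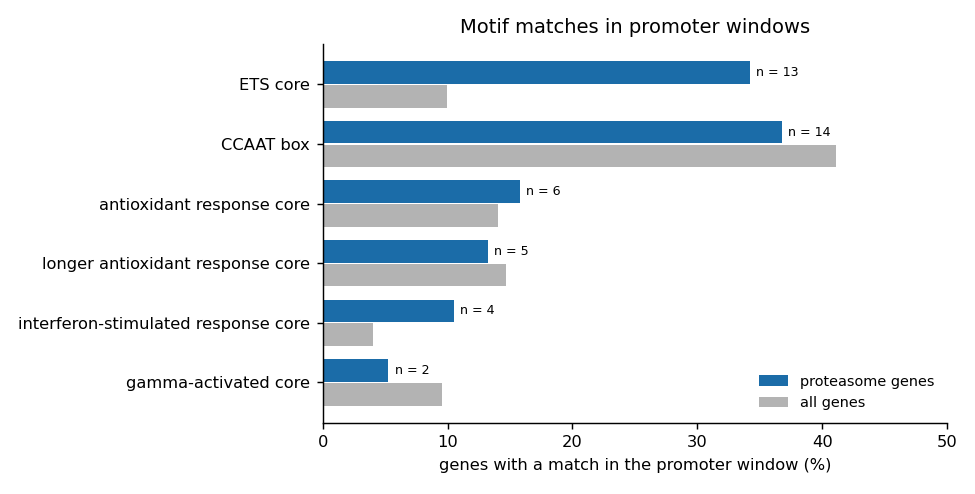
Share of genes with at least 1 match in the promoter window (horizontal axis, percent) for 6 motif cores. Blue bars are the 38 proteasome genes with a window, labelled with the number that matched, and grey bars are all 27025 genes. The ETS core is in 34.2% of the proteasome genes and in 9.93% of all genes, while the CCAAT box and both antioxidant response cores are within a few percentage points.

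The structural genes of the 20S core were split between high signals and background. In the alpha ring, *Psma2* had signals of 13.17, 13.08, and 12.37, a mean level of 6.23 ± 0.39 (limma adjusted p = 3.92e-05). *Psma4* and *Psma7* were also detected, at 5.27 ± 0.52 and 4.86 ± 0.23. All 3 genes were far above background on every array. The lowest of the ring was *Psma3*, at 6.57, 6.34, and 6.36, a mean level of -0.22 ± 0.10. *Psma1* (6.52, 6.59, and 6.29) and *Psma6* (6.61, 6.38, and 6.33) were in the same range. Each of the 3 is read by a single probe, and none was above background on any array. Their proteins are constant parts of the 20S core.

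In the beta ring, the subunits without catalytic activity were all called by limma and detected in part. *Psmb4* had signals of 12.81, 12.60, and 12.28, a mean level of 5.92 ± 0.21 (limma adjusted p = 1.89e-05). *Psmb1* had signals of 11.23, 10.93, and 10.47, a mean level of 4.23 ± 0.33. *Psmb4* and *Psmb1* are read by 1 probe each and were detected on all arrays. *Psmb2* and *Psmb3* are read by several probes and failed the detection call, as described below, with mean levels of 4.63 ± 0.11 and 3.53 ± 0.23.

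Genes of the 19S particle were detected for 9 of 17, and 12 of 17 were called by limma. Of the 6 ATPases of the base, *Psmc1*, *Psmc3*, and *Psmc5* were detected, at mean levels of 2.47 ± 0.54, 3.15 ± 0.52, and 3.17 ± 0.25. The highest of the group, *Psmc2*, had signals of 11.49, 11.20, and 10.81, and *Psmc4* had 10.80, 10.49, and 10.46. Both were detected on replicates 1 and 2 and missed the threshold on replicate 3 with a detection p of 0.0671 and 0.0334. *Psmc6* alone among the ATPases was at background, with signals of 6.59, 6.47, and 6.41 from 2 probes.

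In the rest of the base, *Psmd4*, which encodes a receptor for ubiquitin chains, had signals of 11.91, 11.85, and 11.43, a mean level of 5.09 ± 0.21 (limma adjusted p = 2.05e-05). *Psmd1*, a scaffold subunit, had 12.001, 11.61, and 11.55, a mean level of 5.08 ± 0.20. The other scaffold gene, *Psmd2*, was at background with 6.61, 6.46, and 6.42 from 2 probes. Detected and undetected members thus stood side by side within a single subcomplex.

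The lid showed the same division. *Psmd13* had the highest level of the lid, with signals of 11.51, 11.29, and 10.84 (4.57 ± 0.28, limma adjusted p = 4.04e-05), and *Psmd7* and *Psmd12* were detected at 2.86 ± 0.28 and 2.50 ± 0.30. *Psmd14*, the ubiquitin-removing protease, had signals of 8.34, 8.10, and 7.25, a mean level of 1.26 ± 0.52 (limma adjusted p = 0.00883), with replicate 3 well below the others. Without replicate 2 its level was 1.16 and the adjusted p 0.0795. *Psmd3* was the lowest gene of the whole set, at 6.42, 6.49, and 6.33. *Psmd6* (6.89, 6.67, and 6.44) was detected on replicate 1 alone and *Psmd11* (6.85, 6.81, and 6.49) on replicate 2 alone. Neither was called by limma, with mean levels of 0.03 ± 0.17 and 0.08 ± 0.14, and *Psmd11* passed when replicate 3 was left out (0.16, adjusted p = 0.0334).

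Chaperones that assist assembly of the base were detected for 1 of 3 genes and those of the core for 2 of 2. *Psmd10* (gankyrin) had signals of 9.10, 8.64, and 8.09, a mean level of 1.97 ± 0.45. *Psmd9* (6.81, 6.62, and 6.42) was detected on replicate 1 alone, at a mean level of -0.02 ± 0.14. *Psmd5* (6.82, 6.78, and 6.84) was detected on no array. *Psmd5* was just above the background level on each array, at 0.17 ± 0.08 (limma adjusted p = 0.0349), a call that was lost without any 1 of the replicates (adjusted p 0.0728 to 0.121). *Psmg3* had signals of 9.28, 9.13, and 9.10 (2.53 ± 0.06) and *Psmg2* had 8.83, 8.54, and 8.26 (1.90 ± 0.23). Another core chaperone gene, *Psmg1*, is listed outside the symbol rule under its older name *Dscr2* and was detected, with signals of 10.11, 9.70, and 9.42.

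All activators and the inhibitor were above background by limma. *Psme3*, which encodes the nuclear activator PA28 gamma, had signals of 10.46, 10.18, and 10.10, a mean level of 3.60 ± 0.14 (limma adjusted p = 2.25e-05). *Psme4*, encoding the activator PA200, had 9.62, 9.31, and 8.85, a mean level of 2.62 ± 0.33. The interferon-inducible pair *Psme1* and *Psme2*, which encode PA28 alpha and beta, were detected as well. *Psme1* had signals of 8.86, 8.62, and 8.16 (1.91 ± 0.30). *Psme2* had 7.64, 7.35, and 7.40 (0.82 ± 0.13, limma adjusted p = 0.000591), the lowest of the group and above background on every array. *Psmf1*, the inhibitor PI31, had 8.20, 7.88, and 7.92 (1.36 ± 0.15) and was detected on replicates 2 and 3 but not on replicate 1, where its detection p was 0.0614. *Psmc3ip*, which matches by name only, had signals of 9.96, 9.50, and 9.17 with a detection p of 0 on each array.

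For 26 of the 46 genes the deposited value joins several probes, and in 8 of these the signal was above background on every array without detection on all 3. The deposited p of such a gene follows from the sum of the detection p of its probes, so that the mean p over probes could be recovered, and at least 1 probe has a p no lower than that mean. *Psma5*, an alpha ring gene with 2 probes, had signals of 11.37, 11.60, and 11.16, a mean level of 4.74 ± 0.18 (limma adjusted p = 2.02e-05), and was detected on no array. Its mean probe p was 0.184, 0.217, and 0.311, so that on each array at least 1 of its probes was not well above background. *Psmb2*, with 3 probes, had signals of 11.42, 11.30, and 11.09 and mean probe p of 0.0823, 0.303, and 0.313, and it was detected on replicate 1 alone. *Psmb3*, with 2 probes, had signals of 10.44, 10.20, and 9.88 and mean probe p of 0.217, 0.282, and 0.0908. In all 3 genes a high signal thus came with at least 1 probe that was not well above background, on every array.

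Of the genes with several probes, 19 of the 26 proteasome genes had a signal above background on every array, where 39.9% of all symbols with several probes did. Of those 19, 8 were not detected (42.1%), against 52.1% of 3542 symbols. These 8 were *Psma5*, *Psmb2*, *Psmb3*, *Psmc2*, *Psmc4*, *Psmd5*, *Psmd8*, and *Psmf1*, the same 8 that limma called without detection. The lid gene *Psmd8* had signals of 7.42, 6.91, and 7.20 (0.53 ± 0.25, limma adjusted p = 0.015), and without replicate 1 its adjusted p was 0.058. With a signal more than 1 above background, 6 of 17 proteasome genes were not detected (35.3%), against 37.4% of 1366 symbols. With a signal more than 3 above background, 5 of 8 were not detected (62.5%), against 28.1% of 256 symbols, a description over few genes that was not tested. Of the 20 proteasome genes with 1 probe, 14 were detected, where 20.8% of all symbols with 1 probe were. All 14 had a detection p of 0 on every array, so that their number of probes rests on bead numbers alone. Of the 26 with several, 11 were detected, where 20.1% of such symbols were.

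**Figure D3:**
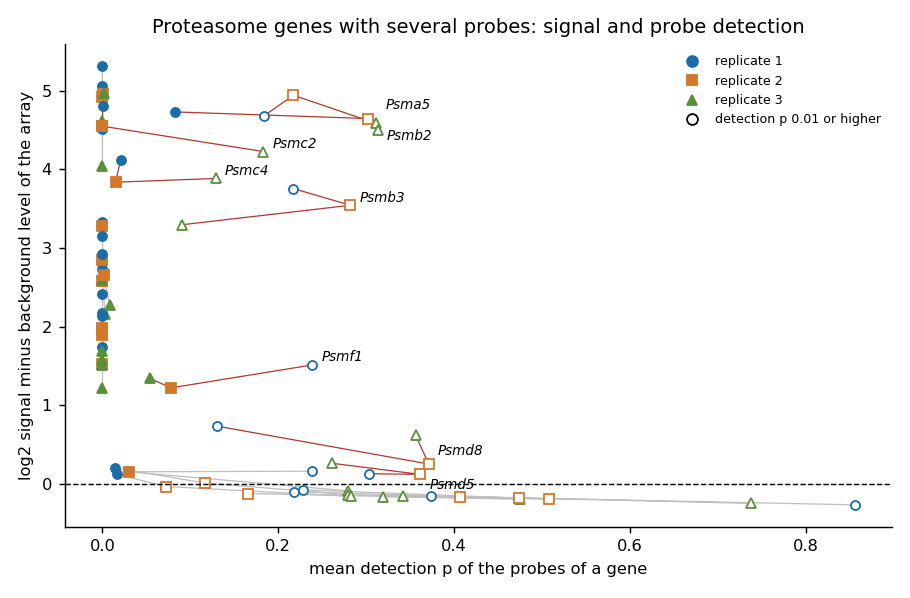
Log2 signal minus background (vertical axis) against the mean detection p over the probes of a gene (horizontal axis) for the 26 proteasome genes with several probes. Each marker is 1 array, lines join the arrays of a gene, open markers have a deposited detection p of 0.01 or higher, and red lines mark the 8 genes that limma called above background without detection on all arrays. *Psma5*, *Psmb2*, and *Psmb3* combine levels between 3.30 and 4.94 with a mean probe p between 0.0823 and 0.313.

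Differences between the arrays were described after quantile normalization, over the 25 detected genes. Their median SD over the 3 arrays was 0.095, and that of all 6357 detected symbols was 0.109. Single genes ranged from 0.03 (*Psmb10*) to 0.33 (*Psmd14*). The median deviation of the 25 genes from their mean was 0.02, -0.01, and -0.01 on replicates 1, 2, and 3, so that the set did not move as a whole. *Psmd14*, *Psmb6*, *Psma4*, *Psmc1*, and *Psmc3* deviated most, and all 5 were lowest on replicate 3. The next gene by SD, *Psmg3* (0.24), was highest on replicate 3, with deviations of -0.16, -0.12, and 0.28. Replicate 3 was the lowest array in 11 of the 25 genes, and in 2159 of all 6357 detected symbols. Visceral endoderm markers differed more between arrays, with a median SD of 0.26 over 13 detected genes, median deviations of -0.04, 0.26, and -0.14, and log2 summed signals of 13.90, 13.99, and 12.94 over the whole list of 14. Of the 25 detected proteasome genes, only *Psmb6* (-0.05, 0.31, and -0.26), *Psma2* (0.02, 0.13, and -0.15), and *Psmd12* (0.003, 0.04, and -0.04) had deviations in the order of these medians. The others did not, and the share of all detected symbols with this order was not counted. The part of the tissue make-up in this was not tested. With median centring in place of quantile normalization, the median SD was 0.27 for the proteasome genes and 0.19 for all detected symbols. On that scale all 25 genes were above their mean on replicate 1, as were 5850 of all 6357 detected symbols. On replicate 3, 20 of the 25 were lowest, as were 5215 of the 6357.

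**Figure D4:**
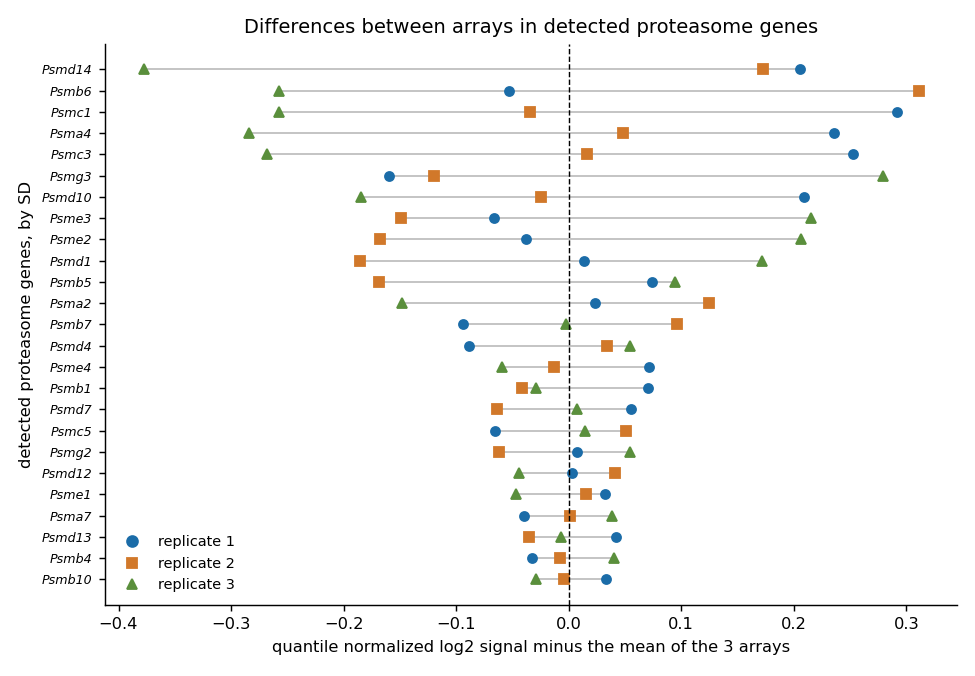
Quantile normalized log2 signal minus the mean of the 3 arrays (horizontal axis) for the 25 detected proteasome genes, ordered by SD. Each marker is 1 array. *Psmd14*, at the top, has an SD of 0.33 and *Psmb10*, at the bottom, of 0.03. Replicate 3 is the lowest array in 11 of the 25 genes, and in 2159 of all 6357 detected symbols.

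Genes that work with the proteasome were mostly detected. Of 14 partner genes on the array, 11 were detected on all arrays (78.6%), where 20.6% of all symbols were. *Pomp*, which encodes the chaperone that completes the core, had signals of 12.08, 11.86, and 10.97 (4.996 ± 0.53). *Vcp*, an ATPase that delivers substrates, was at 5.25 ± 0.30, *Shfm1*, the older name of the lid gene *Sem1*, at 3.69 ± 0.24, and the ubiquitin receptor gene *Adrm1* at 2.46 ± 0.10. The deubiquitinase gene *Usp14*, the thioredoxin-like gene *Txnl1*, and the shuttle factor gene *Ubqln2* were detected on no array. Of 5 genes for ubiquitin and its activating enzymes, 4 were detected (80.0%), with *Ubb* at 7.06 ± 0.29, and *Uba6* was not (6.58, 6.60, and 6.44). Of 7 genes of the transcriptional response, 2 were detected (28.6%), a share near the 20.6% of all symbols. These were *Nfe2l1*, the factor that raises proteasome gene transcription when the proteasome is inhibited, with signals of 9.24, 8.87, and 8.41 (2.20 ± 0.36), and its small MAF partner *Mafg*, with 8.28, 8.10, and 7.94 (1.46 ± 0.12). *Nfe2l2* and *Ddi2* were detected on 1 array each, and *Ngly1*, *Maff*, and *Mafk* on none. DDI2 and NGLY1 are a protease and a glycanase that process NFE2L1.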

How the data were processed

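RNA of 3 wild-type samples was measured on Illumina Mouse-6 arrays, and replicate numbers came from the labels. The authors deposited log2 signals per gene symbol, averaged over probes and not normalized between arrays, with the mean number of beads, a signal error over beads (not used here), and a detection p-value. Per the labels, Partek was used. The smallest step between deposited p-values was 1 in 936. The number of probes was the smallest that fit both the mean bead numbers and these steps. It and the sum of the p of the probes were recovered for all but 2 of 30854 symbols. A p of 0 was accepted for any number of probes, so that with a p of 0 on all arrays the number rests on bead numbers alone. With 4 probes the steps tell little, as 51.1% of random values lie on them. The signal minus the background level of its array was tested with limma 3.58.1 (lmFit, eBayes, one-sided, R 4.3.3), with Benjamini-Hochberg adjustment over all symbols and a threshold of 0.05. The test was checked on simulated data. Quantile normalization was used for the spread between arrays alone, and the number of arrays limits the precision. The proteasome genes and the lists were chosen with earlier results of these data known. The text names the catalytic, inducible, and tissue-restricted core genes, the highest and lowest gene of every other group, and all genes not detected on all arrays. Of each pathway list it names the undetected genes or, where there are over 5 of these, the detected ones, and others, markers included, were chosen after their values were seen. Promoters of 8 genes were not analysed here, and some genes of the related lists are not reported here. Alternatives were other detection thresholds, fewer arrays, symbols with 1 probe, other background levels and normalizations, and leaving out each replicate. Python 3.11.15, pandas 2.3.3, and scipy 1.17.1 were used.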

Additional observations from a re-analysis of the deposited data

How the results depend on the processing

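Of 112 alternatives computed for 14 counts and levels, 99 moved the value little and 13 moved it more. For counts, little was a loose bound. It took in 33 proteasome genes by limma in place of 25 detected, and 11 genes of the constitutive core in place of 8. It also took in 13 genes of the 19S particle in place of 9, with detection on at least 1 array. With symbols of 1 probe alone, 14 of 20 proteasome genes were detected, in place of 25 of 46. Counts and not shares were compared, so that this value moved because the set was smaller. Detection on at least 1 array gave 10172 symbols in all, 4 of 7 transcription genes, and 6 of 14 genes of immunoproteasome induction. The last list gave 1 gene with a detection p under 0.05, 3 with detection on at least 2 arrays, and 3 by limma. A detection p of 0 on all arrays left 7 of 14 partner genes. The median level above background was 3.75 with normexp correction and an offset of 16, and 2.75 with an offset of 50, in place of 2.22. The median SD between arrays was 0.266 with median centring, in place of 0.095, and it was then above the 0.187 of all detected symbols where it had been below their 0.109. Leaving out each replicate in turn gave 25 to 27 proteasome genes detected, 31 to 33 called by limma, 9 to 11 of the 19S particle, 4 to 5 activators, 0 to 2 genes of immunoproteasome induction, 6524 to 7427 symbols detected, median levels of 1.99 to 2.36, and median SDs of 0.0795 to 0.0924. The detection counts among these could only stay or rise, because fewer arrays had to pass. Among single genes, *Psmd5* was lost by limma with the mean background after normalization (adjusted p = 0.0882), and *Psmd11* passed against the median of all symbols (adjusted p = 0.0342). No paired analysis was possible because the arrays form a single group. The slide of each array is not given in the sources used here, so no slide block was fitted.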
